A study of Mus musculus with 12 samples.

Results

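The mRNA levels of 10 mouse genes that act in the removal, renewal, fusion and fission of mitochondria were examined in alveolar type 2 (AT2) cells, the surfactant-producing progenitors of the alveolar epithelium. The genes were Pink1, Bnip3, Bnip3l, Fundc1, Ppargc1a, Tfam, Mfn1, Mfn2, Opa1 and Dnm1l, found by symbol among the 21878 genes of an RNA-seq table, and all 10 were listed there. Levels were FPKM, that is, fragments divided by transcript length and by the mapped fragments of the sample, which can be compared between genes because they are divided by length.

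The 12 samples formed 4 groups of 3 from C57BL/6 mice, described as males of 8 to 12 weeks. AT2-PBS and AT2-BLM cells came from Atg5f/f mice, which carry a floxed Atg5 gene without Cre and are labelled wild type, given phosphate-buffered saline (PBS) or bleomycin (BLM), a drug that damages the alveolar epithelium. Atg5-/- AT2-PBS and Atg5-/- AT2-BLM cells came from Nkx2.1Cre;Atg5f/f mice under the same 2 treatments. Nkx2.1Cre acts across the lung epithelium from development onward, and so is not limited to AT2 cells. BLM was instilled into the trachea at 2 U/kg and cells were taken at day 14, a day that the sources used here do not state for the Atg5-/- AT2-PBS group. The gate was CD31-CD34-CD45-EpCAM+CD24-Sca-1-, which is meant to remove endothelial cells, blood cells and most airway cells. The labels call the samples of a group biological replicates and do not say whether each was 1 mouse. In sorted bulk RNA, fewer cells of a type and less RNA per cell cannot be told apart.

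Damaged mitochondria are delivered to lysosomes by mitophagy, a form of autophagy. In the ubiquitin route, the kinase PINK1 collects on depolarized mitochondria and recruits the ubiquitin ligase Parkin, and adaptor proteins then link the ubiquitin coat to the autophagosome. In the receptor route, proteins of the outer mitochondrial membrane such as BNIP3, BNIP3L (NIX) and FUNDC1 bind LC3-family proteins directly. ATG5, which is needed to attach LC3 to the autophagosome membrane, acts downstream of both routes. The network is shaped by fusion, through MFN1 and MFN2 on the outer membrane and OPA1 on the inner membrane, and by fission, through the dynamin-like GTPase DRP1, the product of Dnm1l. New mitochondria are built under PGC-1α, the product of Ppargc1a, and TFAM, which packages and transcribes mitochondrial DNA.

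The promoters of the members called with BLM in Atg5f/f cells, Mfn2 and Dnm1l, are shown as the 250 bases before the start listed farthest upstream, beside that of Bnip3, a classical hypoxia-responsive mitophagy receptor that did not pass the test. The sequences are from RefSeq on GRCm38.p6, a later build than the mm9 used for the expression values, and 9 of the 10 members had an entry; Bnip3l, the member with the smallest adjusted p for BLM, had none. They lie at chr4:147904910-147905159, strand -, chr16:16359032-16359281, strand -, and chr7:138909507-138909756, strand -. Capitals mark matches, on either strand, to the hypoxia response element core in its forms ACGTG and GCGTG, the E-box CACGTG, which contains ACGTG, the nuclear respiratory factor 1 core GCGCATGCG and the estrogen-related receptor element TCAAGGTCA.
Mfn2: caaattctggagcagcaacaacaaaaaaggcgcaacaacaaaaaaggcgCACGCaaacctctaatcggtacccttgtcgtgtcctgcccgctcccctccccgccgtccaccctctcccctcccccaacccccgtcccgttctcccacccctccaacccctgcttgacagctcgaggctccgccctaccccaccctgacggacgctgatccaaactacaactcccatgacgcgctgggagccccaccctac
Dnm1l: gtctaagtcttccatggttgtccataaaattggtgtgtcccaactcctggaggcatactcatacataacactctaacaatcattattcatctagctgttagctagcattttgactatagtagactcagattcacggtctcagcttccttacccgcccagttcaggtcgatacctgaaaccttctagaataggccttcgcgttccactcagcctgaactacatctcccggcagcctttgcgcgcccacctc
Bnip3: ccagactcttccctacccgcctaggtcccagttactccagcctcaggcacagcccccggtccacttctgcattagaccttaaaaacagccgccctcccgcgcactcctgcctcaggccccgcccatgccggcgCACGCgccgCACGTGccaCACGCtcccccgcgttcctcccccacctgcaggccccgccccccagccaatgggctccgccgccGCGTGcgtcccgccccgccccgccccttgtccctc

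The form ACGTG was found in 2 of the 9 windows, those of Bnip3 and Ppargc1a, against 16.5% of 27025 windows of the same length, 1 per gene. The form GCGTG was in 4 of 9 against 28.3%, and the E-box was in the window of Bnip3 alone against 6.04%. The nuclear respiratory factor 1 core was in that of Opa1 alone, against 1.48%, and the estrogen-related receptor element was in none of the 9, against 0.366%. The Dnm1l window held no match, and the Mfn2 window held 1. Such matches describe letters and not binding.

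The libraries held several features that bear on every value below. FPKM sums ran from 390100 to 549200 per sample, and read depth is not given by such values. Sftpc, the defining AT2 gene, was listed at 0 in 11 of the 12 samples and at 112600 FPKM in AT2-BLM replicate 2, whereas the other 9 AT2 markers summed to between 39060 and 82460 FPKM in every sample. Atg5 itself did not mark the genotype: it read 6.01 to 12.5 FPKM in AT2-PBS and 6.72 to 10.1 in Atg5-/- AT2-PBS, which overlap, and 9.97 to 11.1 in AT2-BLM and 8.37 to 8.84 in Atg5-/- AT2-BLM, which do not. A whole-gene value cannot show the loss of single exons. The sum of 4 Y-linked genes was under 1 FPKM in 7 libraries and between 14.2 and 20.9 in the other 5, within 3 of the groups, although the mice are described as male. Every Atg5-/- AT2-PBS library was among the 7, at 0.449 to 0.733, so comparisons with that group are unbalanced in this sum. The Atg5-/- AT2-PBS libraries stood apart, with summed liver markers of 1841 to 3178 FPKM against 3.79 to 505.6 in AT2-PBS and airway markers of 23130 to 84650 against 4959 to 11760, so comparisons that use that group carry these differences too.

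Pink1 and the 2 BNIP3-type receptor genes were the most abundant members and the fusion, fission and biogenesis genes the least. In AT2-PBS, mean FPKM was 91.0 ± 4.24 for Pink1 (SD, n = 3), 75.9 ± 4.67 for Bnip3, 35.7 ± 2.26 for Bnip3l and 13.2 ± 1.60 for Fundc1, and each of these 4 lay above the next gene in every sample. Mfn2 followed at 6.75 ± 1.05, Dnm1l at 5.89 ± 1.21, Mfn1 at 4.29 ± 1.35, Tfam at 3.601 ± 0.542 and Opa1 at 2.89 ± 0.593, with neighbours in this order overlapping. Pink1 thus stood at the 93.9th percentile of the 10675 genes tested and Opa1 at the 35.2nd. Ppargc1a was near the floor of the table at 0.548 ± 0.246. The order of the first 6 genes by mean was the same in all 4 groups, and Pink1 and Bnip3 overlapped in both Atg5-/- groups.

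**Figure D1:**
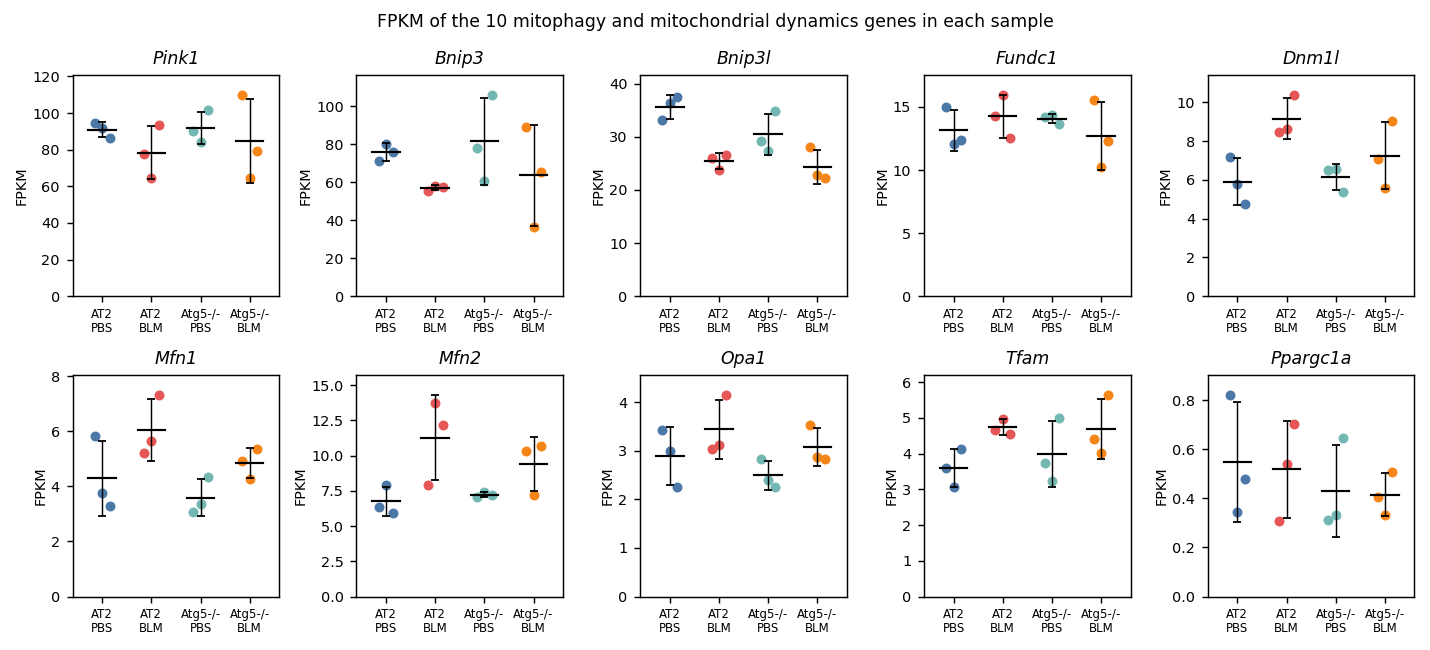
FPKM of each of the 10 genes (vertical axes, linear, from 0) in the 4 groups, 1 point per sample, with a bar at the mean and whiskers of 1 SD. Bnip3l sits between 33.2 and 37.6 in AT2-PBS and between 23.7 and 26.6 in AT2-BLM, while Dnm1l sits between 4.75 and 7.16 and between 8.44 and 10.4.

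Whether injury changed these genes in Atg5f/f cells was asked by comparing AT2-BLM with AT2-PBS. Genes that reached 1 FPKM in 3 or more samples were fitted together by limma on log2(FPKM + 1), a scale that understates the change of low genes, and called where the unadjusted p was under 0.05 and the fold change at least 1.4, the study's own criterion. By this rule 9 members were tested, and 2 rose: Mfn2 and Dnm1l, that is, a fusion gene and the fission GTPase gene. The background is high, since 20.6% of the 10675 genes were called higher and 7.77% lower, so 2 of 9 is near what all genes gave. No member was called lower. Of the members, 3 had an unadjusted p under 0.05, and the adjusted p was under 0.05 for Bnip3l alone, whose change fell just short of the fold criterion. Among all 10675 genes the adjusted p was under 0.05 for 1900. The median change of the members was 0.19 on the log2 scale and that of all genes 0.17, and changes are also given relative to the latter. Other scalings moved the split of all genes from 2202 higher and 829 lower to 1235 and 1398 (quantile normalization), 1405 and 1355 (median-ratio scaling) or 986 and 1288 (scaling to Cdh1).

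**Figure D2:**
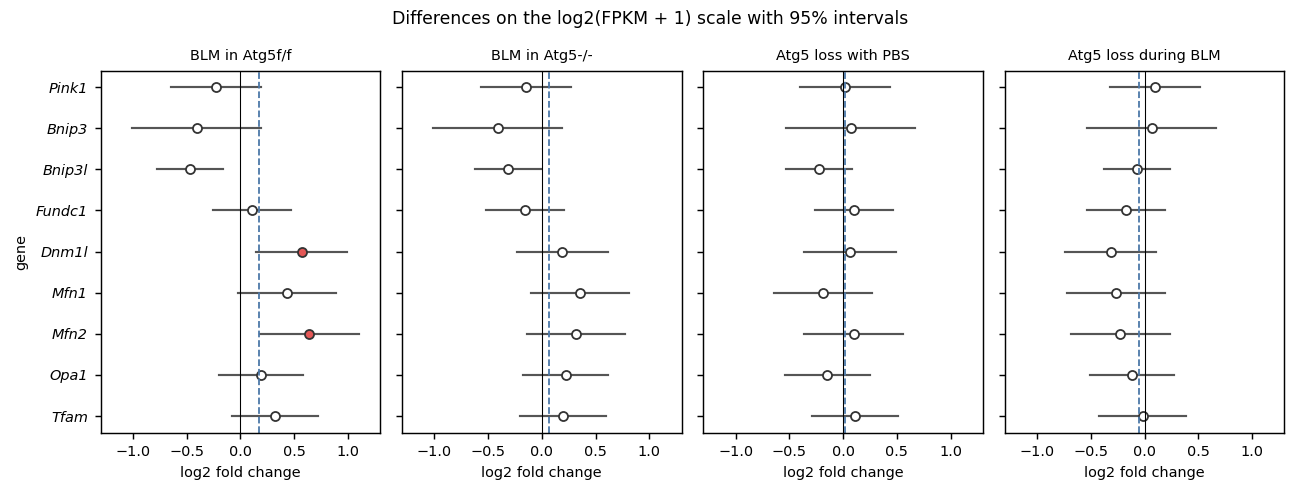
Log2 fold changes of the 9 tested members on the log2(FPKM + 1) scale (horizontal axes) with 95% confidence intervals from limma, in 4 comparisons. Filled points were called and the dashed line is the median of all genes; the filled points are Mfn2 at 0.64 and Dnm1l at 0.57 in Atg5f/f cells, and no point is filled elsewhere.

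Mfn2 (mm9 chr4:147247708-147278813), which joins outer membranes and tethers mitochondria to the endoplasmic reticulum, read 6.36, 7.94 and 5.95 FPKM in AT2-PBS and 7.90, 13.7 and 12.2 in AT2-BLM. Replicates 2 and 3 of AT2-BLM lay above every PBS value, whereas replicate 1 lay within them, so the groups overlapped. The change was 0.64 on the log2 scale (SE 0.21, 95% CI 0.18 to 1.1, limma adjusted p = 0.0542), or 0.47 above the median of all genes. Without AT2-BLM replicate 2 it was 0.49, the unadjusted p no longer passed, and Mfn2 was then not called.

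Dnm1l (mm9 chr16:16312328-16359123), whose product constricts mitochondria at fission sites, read 7.16, 5.77 and 4.75 FPKM in AT2-PBS and 8.44, 8.64 and 10.4 in AT2-BLM. Every BLM value lay above every PBS value. The change was 0.57 (SE 0.19, 95% CI 0.14 to 0.99, limma adjusted p = 0.0623), or 0.40 above the median of all genes. The call was lost without AT2-PBS replicate 3, at 0.45, where the unadjusted p no longer passed, and without AT2-BLM replicate 3, at 0.48, where the fold was under 1.4.

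Bnip3l (mm9 chr14:67604076-67627714) encodes NIX, the receptor that clears mitochondria from maturing red cells and that also acts in hypoxic tissue. It read 33.2, 36.3 and 37.6 FPKM in AT2-PBS and 26.1, 23.7 and 26.6 in AT2-BLM, so that every BLM value lay below every PBS value. The change was -0.47 (SE 0.14, 95% CI -0.78 to -0.16, limma adjusted p = 0.0393), a 1.39-fold lower level, or -0.64 against the median of all genes. Leaving out any single AT2-PBS or AT2-BLM sample raised its limma adjusted p to between 0.0554 and 0.125. With summed AT1 or leukocyte markers in the model, added after the data were seen, the limma adjusted p was 0.263 or 0.180. Neither the AT1 sums nor the leukocyte sums without Lyz1 overlapped between the groups, so these fits cannot separate the markers from BLM. Bnip3l was called lower under quantile normalization (-0.71), median-ratio scaling (-0.66) and scaling to Cdh1 (-0.70), with limma adjusted p = 0.0088, 0.0093 and 0.0618. There Mfn2 and Dnm1l kept their direction, at 0.42 to 0.47 and 0.36 to 0.40, and were not called. Beside Bnip3l, the 7 erythroid markers in the table summed to 97.0 to 667 FPKM in AT2-PBS and 446.5 to 663 in AT2-BLM.

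The other receptor genes and Pink1 did not pass on the deposited scale. Bnip3 (mm9 chr7:146082519-146101202) read 71.1, 80.4 and 76.1 FPKM in AT2-PBS and 55.6, 58.1 and 57.3 in AT2-BLM. These ranges were apart, yet the shared spread was wide because Bnip3 varied in the Atg5-/- groups, with SDs of 23.0 and 26.5 FPKM against 4.67 and 1.31, and the change of -0.40 had an SE of 0.28 and an adjusted p = 0.319 in limma. In a limma fit on these 2 groups alone the unadjusted p of the same change passed 0.05, still under the fold of 1.4. Bnip3 was called lower under median-ratio scaling (-0.60) and scaling to Cdh1 (-0.64). Pink1 (mm9 chr4:137869324-137882222) read 86.3 to 94.5 in AT2-PBS and 64.4 to 93.3 in AT2-BLM, a change of -0.23 with a 95% CI of -0.64 to 0.19. Fundc1 (mm9 chrX:17133690-17149451), a receptor whose binding to LC3 is set by phosphorylation, read 12.1 to 14.99 and 12.6 to 16.0, and its change of 0.11 (95% CI -0.25 to 0.47) turned negative under all 3 other scalings.

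Among the other fusion genes and Tfam the estimates were positive and none passed. Mfn1 (mm9 chr3:32428387-32478161), the tethering partner of MFN2, read 5.83, 3.76 and 3.29 FPKM in AT2-PBS and 5.20, 5.63 and 7.32 in AT2-BLM, a change of 0.43 (SE 0.21) with an adjusted p = 0.168 in limma. Opa1 (mm9 chr16:29579420-29654970), the inner-membrane fusion gene, differed by 0.19 (95% CI -0.20 to 0.59). Tfam (mm9 chr10:70688212-70701028) read 3.06 to 4.14 and 4.55 to 4.98, without overlap, and differed by 0.32 (95% CI -0.078 to 0.73, limma adjusted p = 0.235). In all, 4 of the 9 members had group ranges apart, namely Bnip3, Bnip3l, Tfam and Dnm1l, beside 40.2% of all genes.

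Ppargc1a (mm9 chr5:51845488-51958964) did not reach 1 FPKM in any sample and was not tested with the rest. It read 0.821, 0.345 and 0.478 in AT2-PBS and 0.309, 0.540 and 0.705 in AT2-BLM. Averaged over both genotypes the log2 difference of BLM from PBS was -0.018, with an exact permutation p = 0.85 (two-sided, 400 permutations within genotype, of which the smallest possible p is 0.005). At these levels a change could not be read.

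Markers of some other cell types and of proliferation moved with BLM in the same samples, beside 20.6% of all genes called higher and 7.77% lower. The 6 AT1 markers summed to 1867 to 2273 FPKM in AT2-PBS and 2353 to 3462 in AT2-BLM, with 3 of 6 called higher, and the 7 proliferation genes to 31.2 to 53.2 and 66.0 to 95.1, with all 6 that were tested called higher. All 4 tested airway markers were called lower, with sums of 4959 to 11760 FPKM in AT2-PBS and 881.6 to 4968 in AT2-BLM, and 9 of 11 tested liver markers were called higher, with sums of 3.79 to 505.6 and 235.4 to 732.5. Leukocyte markers other than Lyz1 summed to 19.1 to 123 and 142.7 to 194.7, with 3 of 8 called higher. Of the AT2 markers 9 were tested, with 1 called higher and 2 lower. Called higher were 1 of 5 erythroid, 1 of 5 muscle and 1 of 3 endothelial markers, and no fibroblast marker was called. When the summed AT1 markers were added to the model, a choice made after the data were seen, Mfn2 differed by 0.66, Dnm1l by 0.46 and Bnip3l by -0.43, and no member was called. The SEs of Mfn2, Dnm1l and Bnip3l were then 0.31, 0.28 and 0.20, against 0.21, 0.19 and 0.14 in the main fit. The AT1 sums of the groups did not overlap, so this covariate cannot be separated from BLM. The part of proliferation, airway and liver markers in these differences was not tested.

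Ratios within a sample do not depend on how samples are scaled. The Dnm1l to Bnip3l ratio was 0.167 ± 0.0453 in AT2-PBS (SD, n = 3) and 0.3595 ± 0.0336 in AT2-BLM, and 0.205 ± 0.0456 and 0.3015 ± 0.0906 in the Atg5-/- groups with PBS and BLM. Each of the 6 BLM samples, from 0.246 to 0.406, was above each of the 6 PBS samples, from 0.126 to 0.240. The Mfn2 to Bnip3l ratio was from 0.303 to 0.580 with BLM and from 0.158 to 0.272 with PBS, again without overlap. Of the 8 other tested members, 4 (Tfam, Mfn2, Opa1 and Dnm1l) had a ratio to Bnip3l that was higher in every BLM sample, beside 18.6% of the 10674 other genes tested. The ratio of Bnip3 to Bnip3l overlapped, at 2.03 to 3.05 with PBS and 1.59 to 3.17 with BLM. Because Bnip3l was chosen as the denominator after its values were seen, these ratios are a description and carry no test.

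**Figure D3:**
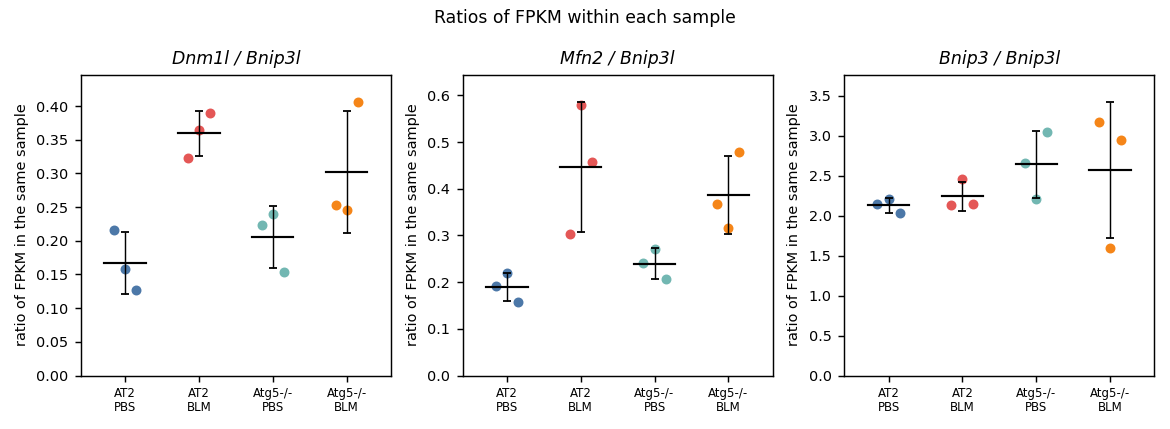
Ratios of FPKM within each sample (vertical axes, linear, from 0) for Dnm1l, Mfn2 and Bnip3 over Bnip3l, 1 point per sample, with the group mean and 1 SD. For Dnm1l the BLM points reach from 0.246 to 0.406 and the PBS points from 0.126 to 0.240, while the Bnip3 ratios overlap.

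The other genes of these pathways were counted from lists chosen by function. Over the 7 lists 29.5% of the 78 genes tested were called with BLM in Atg5f/f cells, beside 28.4% of all genes. Among 16 tested genes of the ubiquitin route 4 were called higher with BLM in Atg5f/f cells and none lower, near the 20.6% of all genes called higher, and the list's median change was 0.41, or 0.24 above all genes. Pgam5, a phosphatase that acts on FUNDC1 and stabilizes PINK1, went from 7.32 ± 0.540 FPKM to 17.2 ± 3.85 (log2 change 1.11, SE 0.20, limma adjusted p = 0.0043). Tomm40, the channel of the outer-membrane import complex, rose by 0.71 and Vdac2, a channel of the outer membrane, by 0.53. In the receptor route 1 of 9 was called higher, a lower share than among all genes: Csnk2b, a subunit of the casein kinase that phosphorylates FUNDC1, at 0.49. Of 5 adaptors 2 were called higher: Sqstm1, the ubiquitin-binding adaptor p62, from 342 ± 143 to 577 ± 109 FPKM, a change of 0.82, and Nbr1 at 0.56. The medians of these 3 lists were 0.19 to 0.22 above that of all genes under each other scaling. Median-ratio and Cdh1 scaling shift all genes of a sample nearly alike, so this distance could hardly change there. Under each other scaling Vdac2, Csnk2b and Nbr1 were not called, nor was Tomm40 under quantile or Cdh1 scaling or Sqstm1 under Cdh1 scaling.

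Biogenesis, fusion and fission lists moved less evenly, and their counts stand beside 20.6% of all genes called higher and 7.77% lower. Of 12 biogenesis genes other than Sirt1 3 were called higher and 2 lower, with a median change of -0.10. Esrra, the nuclear receptor that works with PGC-1α, rose by 0.71, whereas Polg2, the accessory subunit of the mitochondrial DNA polymerase, fell from 4.905 ± 1.404 to 2.06 ± 0.359 FPKM. The deacetylase gene Sirt1, at 1.13 ± 0.0730 and 0.337 ± 0.0620 FPKM, reached the filter only through AT2-PBS, so its lower level with BLM was favoured by the filter and is left out of that count; with it the median was -0.15. Of 12 other genes of the fusion list 1 was called, Afg3l2, an inner-membrane protease, at 0.51. Of 8 others of the fission list 2 were called, Dnm2 at 0.49 and Mtfr1l at 0.51. These 3 calls were lost under all 3 other scalings. Under each of those the fusion-list genes Oma1 and Pld6 were called lower, at -0.51 to -0.56 and -0.64 to -0.74. Both were named after their values were seen. The lists do not separate genes that promote a process from those that limit it. Fis1 and Mff, outer-membrane receptors for DRP1, differed by -0.078 and -0.039 and were not called, and were chosen for mention after their values were seen.

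Hypoxia-response genes, which share regulators with Bnip3 and Bnip3l, split: of 15 tested, 4 were called higher and 3 lower, beside 20.6% and 7.77% of all genes. The transcription factor gene Bhlhe40 rose by 1.42 and the prolyl hydroxylase subunit gene P4ha2 by 0.91, while Egln1, which encodes the oxygen sensor of HIF-1α, fell by 0.98. The split was 2 higher and 4 lower under quantile normalization and scaling to Cdh1, and 2 and 3 under median-ratio scaling, with these 3 genes called each time. In the KEGG mitophagy set, added after seeing the data, 6 members are included, and of the 49 other genes tested 9 were called higher and 5 lower, beside the 20.6% and 7.77% of all genes.

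**Figure D4:**
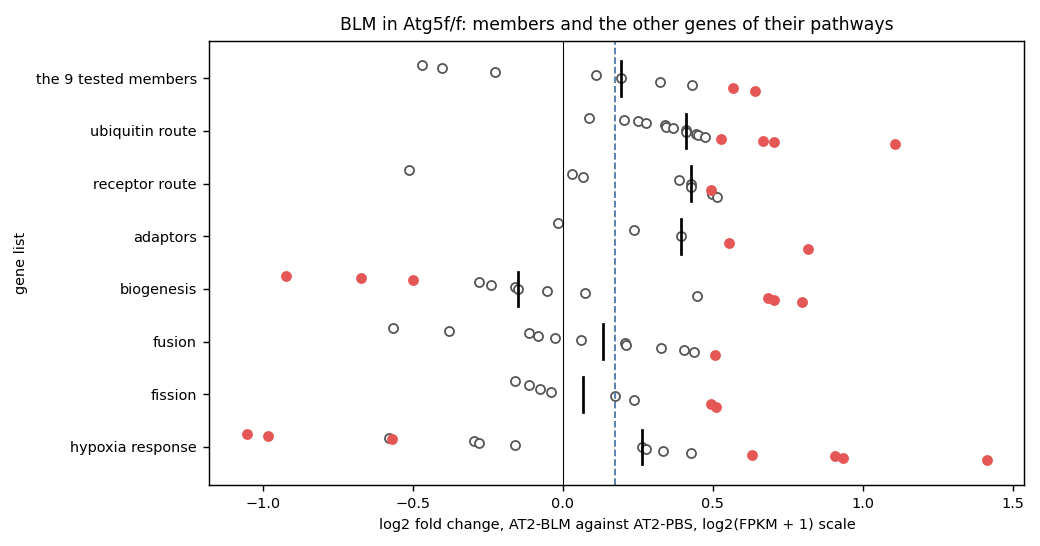
Log2 fold changes of AT2-BLM against AT2-PBS on the log2(FPKM + 1) scale (horizontal axis) for the 9 tested members and for the other genes of each pathway list (rows), 1 point per gene. Filled points were called, black bars are list medians and the dashed line is the median of all genes at 0.17; the ubiquitin-route median stands at 0.41 and the biogenesis median, Sirt1 included, at -0.15.

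Loss of Atg5 was asked about under injury by comparing Atg5-/- AT2-BLM with AT2-BLM. None of the 9 tested members was called in limma, none had an unadjusted p under 0.05, and none had group ranges apart; among all genes 2.04% were called higher, 3.12% lower and 13.4% had ranges apart. The changes ran from -0.32 for Dnm1l to 0.093 for Pink1, with 7 of 9 below 0, of which Bnip3l, Tfam and Opa1 turned above 0 under scaling to Cdh1, Bnip3l also under quantile normalization and Tfam under median-ratio scaling. Dnm1l read 7.10, 5.60 and 9.03 FPKM in Atg5-/- AT2-BLM, below the AT2-BLM mean of 9.16 ± 1.07 in each sample but overlapping it in range, and the 95% CI of the change was -0.74 to 0.11. Mfn2 read 10.3, 7.20 and 10.7 FPKM, a change of -0.23 (95% CI -0.69 to 0.23). The narrowest interval, of 0.31 either side, was that of Bnip3l at -0.067, and the widest, of 0.60, that of Bnip3 at 0.065. With 3 samples a group, changes of any size within those intervals remain compatible with these values.

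Of the 78 genes tested in the pathway lists 5 were called without Atg5 during BLM, 2 higher and 3 lower. This is 6.41%, beside 5.16% of all genes. Called lower were Ndrg1 of the hypoxia list and Pgam5 and Sqstm1, the latter 2 by log2 changes of -0.65 and -0.59, to 10.6 ± 2.65 and 379 ± 21.9 FPKM. Sirt3, the main mitochondrial deacetylase gene, was called higher by 0.49 and Egln1 by 1.03, the latter with an SD of 4.91 around 7.83 FPKM. The call of Sqstm1 held in 10 of 24 alternative settings and that of Pgam5 in 23. Their adjusted p in limma lay between 0.607 and 0.621, and AT2-BLM serves as the reference both here and, with opposite sign, in the comparison above, so the 2 sets of values are not independent.

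Without injury, Atg5-/- AT2-PBS against AT2-PBS, none of the 9 members was called and none had an unadjusted p under 0.05 in limma, beside 14.1% of all genes called higher, 5.16% lower and 28.9% with ranges apart, of which the members had none. The changes ran from -0.23 for Bnip3l to 0.11 for Tfam. Bnip3l read 29.3, 27.4 and 34.8 FPKM without Atg5, and the change had a 95% CI of -0.53 to 0.082. Mfn2 was tightly grouped at 7.08, 7.43 and 7.19. Of the 78 genes tested in the pathway lists 5 were called, which is 6.41% beside 19.3% of all genes. They included Sirt1, which reached the filter only through AT2-PBS, and the hypoxia-list genes Bhlhe40 and P4ha1. Mff, an outer-membrane receptor for DRP1, was the 1 fission gene called, with a log2 change of -0.61, and Nlrx1, a mitochondrial NOD-like receptor gene, was called higher from 1.74 to 4.14 mean FPKM. All 8 tested leukocyte markers other than Lyz1 and all 11 tested liver markers were called higher in Atg5-/- AT2-PBS. Their part in the differences of Mff and Nlrx1 was not tested beyond a fit with leukocyte markers as a covariate. That fit was added once the data had been seen, and neither gene was called in it. The leukocyte sums without Lyz1 did not overlap between these groups, so the fit cannot separate the markers from the genotype.

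The effect of BLM was next taken within Atg5-/- cells. None of the 9 members was called in limma, with 7.66% of all genes called higher and 10.7% lower. Bnip3l had the 1 unadjusted p under 0.05: it read 28.1, 22.8 and 22.3 FPKM with BLM against 29.3, 27.4 and 34.8 with PBS, with overlap, a change of -0.31 (95% CI -0.62 to -0.0047, limma adjusted p = 0.221) and a fold under 1.4. Mfn1 changed by 0.36, Mfn2 by 0.32 and Dnm1l by 0.19, all with intervals that include 0 and all turned below 0 by scaling to Cdh1. Bnip3 read 89.1, 36.2 and 65.6 against 77.99, 60.6 and 106, with SDs of 26.5 and 23.0. No member had ranges apart, beside 24.9% of all genes. In the same comparison 4 of 6 AT1 markers were called higher and 8 of 8 tested leukocyte markers other than Lyz1 lower, as were 4 of 4 airway, 5 of 6 fibroblast, 7 of 11 liver and 4 of 5 muscle markers, and their part in these values was not tested beyond the 2 covariates. Leaving out Atg5-/- AT2-BLM replicate 1 gave 1 called member, and the leukocyte covariate 2. The AT1 sums and the leukocyte sums without Lyz1 did not overlap between these groups, so neither covariate can be separated from BLM.

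Whether the BLM effect differed by genotype was tested by the interaction. No member passed, none had an unadjusted p under 0.05 in limma, and of all genes 5.02% were called higher and 15.2% lower. The difference was -0.38 for Dnm1l (95% CI -0.98 to 0.22, limma adjusted p = 0.484) and -0.32 for Mfn2 (95% CI -0.97 to 0.33), so the 2 calls in Atg5f/f cells were not shown to be particular to that genotype. For Bnip3l it was 0.16 (95% CI -0.28 to 0.59).

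Since no interaction passed, the BLM effect was also averaged over both genotypes, a contrast added after seeing the data that uses all 12 samples. No member reached a fold of 1.4, beside 12.1% of all genes called higher, 7.21% lower and 5.58% with the 6 BLM samples apart from the 6 PBS samples, which no member showed. The adjusted p was under 0.05 for 2 members in limma: Bnip3l at -0.39 (SE 0.10, 95% CI -0.61 to -0.17, adjusted p = 0.0184) and Mfn2 at 0.48 (SE 0.15, 95% CI 0.16 to 0.80, adjusted p = 0.0411). The same held for 2133 of the 10675 genes tested, a share near that of the members. Mfn1 at 0.39 and Dnm1l at 0.38 had adjusted p = 0.0804 and 0.0728 in limma.

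Over the 12 samples the gene whose log2(FPKM + 1) followed Dnm1l most closely was Hspa9, the mitochondrial HSP70 (Pearson's r = 0.948). Tfam was followed by Hadha, a subunit of the mitochondrial enzyme of fatty acid β-oxidation (r = 0.947), Mfn2 by Bag5 (r = 0.930) and Bnip3l by Aaed1 (r = 0.958). These are the highest of all genes tested, the samples share libraries and scaling, and no p is attached.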

How the data were processed

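RNA from FACS-sorted AT2 cells was sequenced in 12 samples. The authors deposited 1 table of FPKM per gene. The submitters' processing notes name Trimmomatic 0.36, HISAT2 2.2.1.0, Cufflinks 2.2.1 and HTSeq 0.9.1 and the build mm9, whereas the methods name STAR as the aligner; the methods also state a normalization with DESeq, and whether the deposited FPKM carry it could not be told: their median-ratio factors ran from 0.9298 to 1.174. Of 21878 genes, the 10675 that reached 1 FPKM in 3 or more samples entered the tests, on log2(FPKM + 1), with limma 3.58.1 in R 4.3.3 (mean-variance trend, all 4 groups in 1 fit, Benjamini-Hochberg adjustment). Calls needed an unadjusted p under 0.05 and a fold of at least 1.4. In exact permutation tests 3 against 3 cannot go below p = 0.1. The fit was tested on simulated data. Alternatives were the pseudocount, the filter, quantile, median-ratio and Cdh1 scaling, a fit without the mean-variance trend, a replicate block, a fit limited to the groups compared, leaving out each sample, and, added after seeing the data, Y-linked, AT1 and leukocyte covariates. All members are described; from each list at most the 3 called genes with the smallest p were named, apart from Fis1, Mff, Oma1 and Pld6, and Epas1 and Egln1 in the interaction, chosen after their values were seen, and for likeness the gene with the highest Pearson correlation. Members and lists were chosen with earlier results of these data known. Gene positions are from GENCODE on mm9 (NCBIM37). The names of 27 genes had been turned into dates, none of them a member. The limma p-values set each difference against the spread between these samples, which the main fit shares over the 4 groups. Whether each sample was 1 mouse is not stated by the labels.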

Additional observations from a re-analysis of the deposited data

Results flagged for a closer look

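For no member was a difference between the genotypes in the effect of BLM shown. Of the 78 genes tested in the 7 pathway lists 12 were called by limma's interaction under the same rule of p and fold, which is 15.4% beside 20.2% of all genes. These differences are given here as the log2 BLM effect in Atg5-/- minus that in Atg5f/f cells. In the ubiquitin route these were Pgam5 at -0.98 (adjusted p = 0.0519), whose mean FPKM was 9.53 with PBS and 10.6 with BLM in Atg5-/- cells against 7.32 and 17.2 in Atg5f/f cells, and Parl, the protease that cleaves PINK1, at -0.49. The mitochondrial NOD-like receptor gene Nlrx1 differed by -1.42 (adjusted p = 0.0230) and the adaptor gene Sqstm1 by -0.95 (adjusted p = 0.153). In biogenesis Sirt3 differed by 0.56 and Sirt1 by 0.68, although Sirt1 reached the filter only through AT2-PBS, which favours such a difference, and among the fusion genes Pld6, a phospholipase of the outer membrane, by 1.05. In the hypoxia list Ndrg1 differed by -1.78, Bhlhe40 by -1.43 (adjusted p = 0.0384) and P4ha2 by -0.69, while 2 further genes were called in the other direction, Egln1 at 1.12 and Epas1 at 0.93, named here after their values were seen. Of the genes above other than these 2, all but P4ha2 were no longer called once summed leukocyte markers entered the model, an alternative added when the data had been seen; these markers without Lyz1 summed to 604.8 to 1787 FPKM in Atg5-/- AT2-PBS and 19.1 to 123 in AT2-PBS. Those sums did not overlap, so this covariate cannot be separated from the groups compared. The lost calls therefore do not say what part leukocyte content had. P4ha2 was not called under quantile normalization.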

How the results depend on the processing

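In Atg5f/f cells, where 2 members were called with BLM, the count was 1 under quantile normalization (Bnip3l, lower) and 1 with the leukocyte covariate (Mfn2), 0 with the AT1 covariate, 0 at a fold of at least 2 and 0 when the adjusted p was required. It ran from 1 to 4 when each replicate was left out: 4 without AT2-PBS replicate 1 (with Mfn1 higher and Bnip3l lower), 1 without AT2-PBS replicate 3 (Mfn2) and 1 without AT2-BLM replicate 2 (Dnm1l). Median-ratio scaling and scaling to Cdh1 also gave 2, but these were Bnip3 and Bnip3l, called lower. Mfn2 was called in 19 of 24 settings, Dnm1l in 17 and Bnip3l in 6, and the direction of each held in all 24. The direction was fixed in advance where only the filter, trend, replicate block or samples outside the comparison changed, since the change itself stayed the same. With BLM in Atg5-/- cells, where 0 members were called, scaling to Cdh1 gave 4, the leukocyte covariate 2 and leaving out a replicate 0 to 1. For BLM averaged over genotypes, also 0, the count was 1 with a pseudocount of 0.1, 2 under quantile normalization, 2 under median-ratio scaling, 3 with scaling to Cdh1, 1 with the leukocyte covariate and 0 to 2 without each replicate, the 2 being reached without Atg5-/- AT2-PBS replicate 2. The 2 comparisons of Atg5 loss and the interaction kept a count of 0 in every setting run. The cause of these moves was not tested.

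The log2 changes of single members that turned sign were all of uncalled values. Under quantile normalization Fundc1 became -0.097 for BLM in Atg5f/f cells and Bnip3l 0.040 for Atg5 loss during BLM, while for Atg5 loss with PBS Bnip3 became -0.013, Fundc1 -0.015, Mfn2 -0.043, Tfam -0.066, Dnm1l -0.082 and Pink1 -0.085. Under median-ratio scaling Fundc1 became -0.070 for BLM in Atg5f/f cells, Tfam 0.034 for Atg5 loss during BLM and Pink1 -0.022 for Atg5 loss with PBS. Under scaling to Cdh1 Fundc1 became -0.11 for BLM in Atg5f/f cells; Opa1 0.015, Bnip3l 0.099 and Tfam 0.12 for Atg5 loss during BLM; Mfn1 0.13, Opa1 0.15 and Bnip3l 0.16 for Atg5 loss with PBS; and Mfn1 -0.011, Mfn2 -0.097, Opa1 -0.12, Tfam -0.18 and Dnm1l -0.22 for BLM in Atg5-/- cells, with Bnip3l at -0.059 in the interaction. With the AT1 covariate Bnip3 became -0.077 for Atg5 loss during BLM and -0.15 with PBS, and Fundc1 -0.12 for Atg5 loss with PBS and 0.18 for BLM in Atg5-/- cells. With the Y-linked covariate Pink1 became -0.025, Bnip3 -0.045 and Fundc1 -0.063 for Atg5 loss with PBS and Fundc1 0.011 for BLM in Atg5-/- cells. With the leukocyte covariate Bnip3l became 0.20 and Dnm1l -0.21 for Atg5 loss with PBS, and Bnip3l -0.23 in the interaction. Without each replicate, Atg5 loss during BLM ranged from -0.11 to 0.27 for Pink1, -0.22 to 0.42 for Bnip3 and -0.14 to 0.066 for Tfam; Atg5 loss with PBS from -0.058 to 0.073 for Pink1, -0.14 to 0.26 for Bnip3, -0.032 to 0.22 for Tfam, -0.33 to 0.011 for Mfn1 and -0.061 to 0.19 for Dnm1l; and BLM in Atg5-/- cells from -0.35 to 0.026 for Pink1.

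For the named genes of the pathway lists, 884 of 1061 values stayed called in the same direction, 177 were no longer called and 0 turned sign. Some of these settings left the change itself as it was, so they could not turn its sign. Deviations of same-numbered replicates had correlations across genes of 0.045 to 0.19 for BLM in Atg5f/f cells and 0.0036 to 0.23 for BLM in Atg5-/- cells. For the 2 comparisons of Atg5 loss they ran from -0.24 to 0.11. Whether the numbers pair the samples could not be told from these values. A fit with the replicate number as a block still called 2 members with BLM in Atg5f/f cells and 0 elsewhere. Fits on only the compared groups give no value for the interaction or the averaged effect. FPKM hold no read depth, so the counting error behind low members such as Opa1, Tfam and Ppargc1a could not be given.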
